A study of Arabidopsis thaliana with 15 samples.

Results

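RNA of sorted nuclei was set against RNA of whole seedlings in wild type Arabidopsis thaliana (thale cress, ecotype Col-0), gene by gene. The comparison rests on 4 of the 15 libraries of the series, chosen by their labels: nuclei (n = 2, replicates nuclei 1 and nuclei 2) and total RNA of whole plants (n = 2, replicates total 1 and total 2). The plants of both groups carried no mutation and were 2 weeks old. The seeds had 4 days of cold in darkness, and the plants then grew on agarose medium under white light that was never switched off (50 µmol/m2/s) at 22 °C. Nuclei were purified by fluorescence-activated sorting before RNA was extracted, both kinds of RNA were extracted with phenol, and polyadenylated RNA was then selected. Of the other libraries, wild type seedlings (n = 4) and seedlings of the eds4 mutant (n = 3) belong to a separate profiling experiment, and the rest are eds4 nuclei and eds4 total RNA (n = 2 each).

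The labels do not say which cells gave the nuclei, by what marker they were sorted, or whether replicates were separate cultures or pools of plants. The p-values therefore rest on the variation among these libraries, which may be partly technical. In RNA from mixed tissue, fewer cells of a type and less RNA per cell cannot be told apart, and a difference in location within the cell cannot be told apart from another mix of cells among the sorted nuclei.

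A messenger RNA is made, capped, spliced and polyadenylated in the nucleus and leaves it through nuclear pores, while translation and much of its decay take place in the cytoplasm. Total RNA holds both pools, so the nuclear-to-total ratio of a gene describes how its transcript is divided, relative to the typical gene. Some RNAs work or are cut up inside the nucleus: the hairpin precursors of microRNAs (which Dicer-like 1 cuts there in plants), the small nuclear RNAs of the spliceosome and the small nucleolar RNAs that guide modification of ribosomal RNA.

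Mature microRNAs are too short for these libraries, so what was counted at a microRNA locus is its polyadenylated primary transcript. The 10 microRNA loci that were higher in nuclei make the following mature sequences, 1 arm each, shown for the precursors that the first results below turn on. They come from RefSeq (assembly TAIR10.1), run 5′ to 3′ in DNA letters, and have bases 2 to 8, the seed, in capitals. The 3p arm of miR398b is added as an example of a related locus that was measured too and did not pass.

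miR834: tGGTAGCAgtagcggtggtaa
miR863-3p: tTGAGAGCaacaagacataat
miR824-5p: tAGACCATttgtgagaaggga
miR398c-3p: tGTGTTCTcaggtcacccctg
miR159b-3p: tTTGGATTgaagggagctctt
miR167d: tGAAGCTGccagcatgatctgg
miR850: tAAGATCCggactacaacaaag
miR162a-3p: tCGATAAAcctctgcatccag
miR408-3p: aTGCACTGcctcttccctggc
miR156c-5p: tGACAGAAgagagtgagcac
miR398b-3p: tGTGTTCTcaggtcacccctg

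The 10 arms have 10 different seeds, and miR398c-3p is letter for letter the same as miR398b-3p. In the same way miR156c-5p is identical to miR156a-5p, whose locus MIR156a was tested and did not pass (ratio -0.39, SE 1.94, adjusted p = 0.900). The seed of miR167d is shared by miR167a-5p and miR167b, whose loci did not pass either (ratios 1.09 and 1.78, adjusted p = 0.621 and 0.129). These sequences therefore do not each point to a single precursor.

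Counts were made per locus over 33602 loci of the TAIR10 build. The libraries held 19594301 and 15291096 counts in nuclei, against 31745372 and 31168662 in total RNA, with a count at 22801 and 23608 loci in nuclei and at 23250 and 23200 in total RNA. Values are given as CPM, the count as a rate of the scaled library size, with ratios as log2 of nuclei over total RNA with a standard error (SE), so that a positive ratio means higher in nuclei. Adjusted p-values are those of edgeR's quasi-likelihood F test with Benjamini-Hochberg adjustment over 21484 loci that passed a filter on low counts, and a gene is said to have been higher or lower where that value was under 0.05.

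In all, 6582 of 21484 loci (30.6%) passed, 3237 higher in nuclei (15.1%) and 3345 lower (15.6%). Of these, 5599 (26.1% of loci tested) also differed by 2-fold or more on the fitted scale, 2821 higher and 2778 lower. Both nuclear libraries lay above both total RNA libraries at 33.1% of loci tested and below them at 35.4%. Lack of overlap is thus common and adds little to a call. The ratio had its quartiles at -0.81 and 0.90 and its 5th and 95th percentiles at -2.05 and 2.56, with a median SE of 0.37. Scaling sets the typical gene near 0 (median ratio -0.0034), so a shift common to most transcripts would not appear. The number passing fell to 3418 without total 1 and to 3473 without total 2, against 5083 without nuclei 1 and 5605 without nuclei 2. A core of 2670 loci passed whichever of the 4 libraries was left out, 1272 higher and 1398 lower. Below, left-out counts are the members passing without nuclei 1, nuclei 2, total 1 and total 2, in that order, and beside the median of a list or an RNA class other than protein-coding genes, the median without 1 library that is furthest from it in proportion is given where it moved by over 1.5 times. The loci that pass the filter differ somewhat between these fits.

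Non-coding RNA classes held more rises than falls in nuclei. Of 31 primary microRNA transcripts tested, out of 178 annotated loci, 10 were higher and 0 lower, with a median ratio of 1.93. Small nucleolar RNAs (28 of 71 loci tested, 13 higher, 0 lower, median 2.71) and small nuclear RNAs (9 of 13 tested, 5 higher, 0 lower, median 2.36) also had no member that was lower. Of 320 long non-coding and other RNAs tested, 92 were higher and 26 lower, with a median of 0.47. Protein-coding genes, for comparison, had 2925 higher (14.4%) and 3287 lower (16.2%) of 20319 tested, with a median of -0.04. A locus with few counts in total RNA passed the filter only through its counts in nuclei, so the medians of the rare classes describe the loci tested and not all annotated loci.

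The shares of all counts showed the same division for primary microRNA transcripts, small nucleolar RNAs and long non-coding and other RNAs. Primary microRNA transcripts took 0.0446 and 0.0326% of counts in nuclei, against 0.00985 and 0.00810% in total RNA. Small nucleolar RNAs took 0.0218 and 0.0333% in nuclei, against 0.00306 and 0.00301% in total RNA, and long non-coding and other RNAs 2.14 and 2.18% in nuclei, against 0.588 and 0.615% in total RNA. Protein-coding genes took 92.2 and 80.5% in nuclei, against 97.2% in both total RNA libraries. Nuclear rRNA took 2.79 and 11.2% in nuclei, against 0.792 and 0.742% in total RNA. Chloroplast-encoded genes took 1.33 and 4.21% in nuclei, against 0.661 and 0.731% in total RNA, although the median ratio of those tested was -1.30. A few loci can carry such a share, as described below for ATCG00950 and its copy. Shares add up to the whole library, so a larger share of these lowers the protein-coding share. In none of these classes did the share of a nuclear library overlap with that of a total RNA library.

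**Figure D1:**
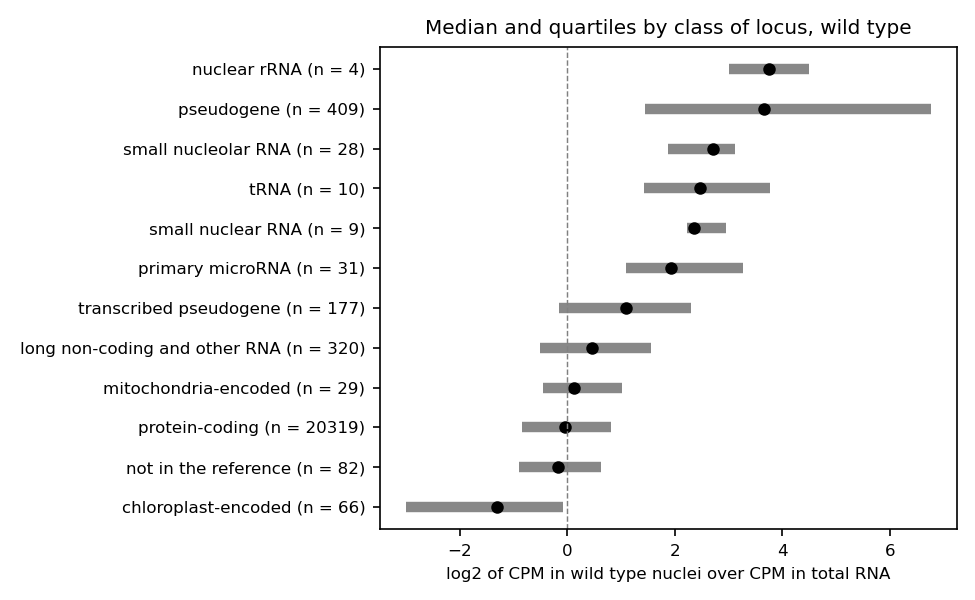
Log2 ratio of nuclei over total RNA in the wild type for the loci tested in each RNA class of the reference annotation, with n tested beside each class; the grey bar spans the quartiles and the black point is the median. Medians run from 3.76 for nuclear rRNA, through 2.71 for small nucleolar RNA and 1.93 for primary microRNA, to -0.04 for protein-coding genes and -1.30 for chloroplast-encoded genes; the pseudogene median (3.65) rests largely on loci with few counts in total RNA and is 0.70 over the 142 with at least 10 counts in both total RNA libraries.

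Pseudogenes differed in how many were seen at all. Of 3911 annotated pseudogenes, 29.7 and 39.5% had a count in the nuclear libraries, against 9.82 and 9.08% in the total RNA libraries, although the nuclear libraries were the shallower ones. They took 0.540 and 0.623% of counts in nuclei, against 0.139 and 0.141% in total RNA. Of 409 tested, 123 were higher and 4 lower, with a median ratio of 3.65 (6.11 without total 1) and 79, 68, 35 and 36 higher as left-out counts. Most of those tested passed the filter through nuclei, where they are high. Of the 142 with at least 10 counts in both total RNA libraries, a set formed after values were seen, 49 were higher and 4 lower, with a median ratio of 0.70. Among 177 transcribed pseudogenes tested, 49 were higher and 3 lower, with a median of 1.09.

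A small set of loci was seen in 1 kind of RNA alone. With at least 10 counts in both nuclear libraries and 0 in each of 6 wild type whole-seedling libraries (total RNA and profiling seedlings) there were 35 loci, of which 33 were pseudogenes and 2 protein-coding. With at least 10 counts in both total RNA libraries and 0 in both nuclear libraries there were 141, of which 122 were protein-coding and 8 chloroplast-encoded. Counts of 0 limit only what this depth could detect. The 35 and the 141 are not to be compared, because the first rule asked for 0 in more libraries, and in deeper ones, than the second.

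Nuclear ribosomal RNA and the chloroplast differed between the nuclear replicates as well as from total RNA. The 4 nuclear rRNA loci took 2.79% of counts in nuclei 1 and 11.2% in nuclei 2, against 0.792 and 0.742% in total RNA. The highest was 18S rRNA, whose locus AT3G41768 (chromosome 3, 14197677 to 14199484) stood at 10784 and 54984 CPM in nuclei, against 4330 and 4267 CPM in total RNA. Its ratio was 2.94 (SE 0.70, adjusted p = 0.0111), but the call was lost without nuclei 2, total 1 or total 2 (adjusted p = 0.0709, 0.0553 and 0.0565). AT2G01010 on chromosome 2 is an identical copy, and reads of the pair cannot be told apart.

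The other 2 nuclear rRNA loci, AT2G01020 and AT3G41979, are identical stretches of 164 bp, the second annotated as 5.8S rRNA. AT3G41979 (chromosome 3, 14199753 to 14199916) stood at 3130 and 4472 CPM in nuclei, against 128 and 209 CPM in total RNA. Both nuclear libraries lay far above both total RNA libraries, and the ratio of 4.50 (SE 0.59, adjusted p = 0.000675) passed whichever library was left out.

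Of 66 chloroplast-encoded genes tested, 2 were higher (3.03%) and 10 lower (15.2%), beside 15.1% higher and 15.6% lower over all loci. Their median ratio was -1.30 (-4.13 without nuclei 2, where 74 were tested). A count was seen at 37.6 and 53.4% of chloroplast loci in nuclei, against 89.5 and 80.5% in total RNA. Their summed share was nevertheless 1.33 and 4.21% in nuclei, against 0.661 and 0.731% in total RNA, where ATCG00950 and its identical copy ATCG01180 were the highest of these loci. ATCG00950 (chloroplast genome, 104691 to 107500) stood at 5268 and 16673 CPM in nuclei, against 1982 and 2263 CPM in total RNA. Its call (adjusted p = 0.0221) was lost without nuclei 2, total 1 or total 2 (0.151, 0.104 and 0.0816), and none of the 12 chloroplast calls passed in each of the 4 left-out fits. Left-out counts of lower chloroplast loci were 3, 15, 1 and 2.

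The primary microRNA transcripts are taken next, in the order of the sequences above. Left-out counts for the class were 8, 8, 5 and 4 higher, and 4 of the 10 passed with any single library absent. MIR834 (AT5G08210, chromosome 5, 2641426 to 2641674) stood at 63.6 and 59.2 CPM in nuclei, against 5.28 and 6.51 CPM in total RNA. Its ratio was 3.38 (SE 0.34, adjusted p = 0.000354), and the 2 kinds of RNA lay far apart. The locus overlaps AT5G08230, and without strand information the reads of the pair cannot be told apart.

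MIR863 (AT4G13494, chromosome 4, 7846597 to 7846899) stood at 56.8 and 70.7 CPM in nuclei, against 7.09 and 4.07 CPM in total RNA, a ratio of 3.51 (SE 0.53, adjusted p = 0.00124). It overlaps AT4G13495 in the same way. MIR824 (AT4G24415, chromosome 4, 12623536 to 12626432), whose microRNA targets the MADS-box gene AGL16, stood at 12.2 and 11.3 CPM in nuclei, against 2.66 and 1.61 CPM in total RNA. Its ratio was 2.46 (SE 0.46, adjusted p = 0.00344), with no overlap between nuclei and total RNA.

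MIR398c (AT5G14565, chromosome 5, 4694626 to 4697013), whose microRNA targets copper superoxide dismutases, stood at 171 and 75.1 CPM in nuclei, against 33.2 and 31.5 CPM in total RNA. The nuclear libraries differed from each other more than those of total RNA did, yet both were higher, with a ratio of 1.93 (SE 0.37, adjusted p = 0.00376). MIR398b (AT5G14545), which makes the same 3p sequence, stood at 3.72 and 3.97 CPM in nuclei, against 3.64 and 4.65 CPM in total RNA. Its ratio was -0.11 (SE 0.52, adjusted p = 0.898), so a difference like that of MIR398c was not seen at the second locus.

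The other 6 lost their call without at least 1 library. MIR159b (AT1G18075, chromosome 1, 6220648 to 6220833), whose microRNA targets GAMYB-like transcription factors, stood at 4.25 and 5.76 CPM in nuclei, against 0.689 and 0.429 CPM in total RNA (ratio 3.15, SE 0.70, adjusted p = 0.00813, 0.0578 without total 1 and 0.0982 without total 2). MIR167d (AT1G31173, chromosome 1, 11137365 to 11138969), of the family that targets auxin response factors, stood at 9.14 and 6.68 CPM in nuclei, against 0.952 and 0.643 CPM in total RNA (ratio 3.30, SE 0.84, adjusted p = 0.0153). It was lost without nuclei 1, total 1 or total 2 (0.0516, 0.0771 and 0.113).

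MIR850 (AT4G13493, chromosome 4, 7845707 to 7845927) stood at 14.3 and 5.96 CPM in nuclei, against 1.90 and 0.250 CPM in total RNA (ratio 3.22, SE 0.87, adjusted p = 0.0196), and was lost without nuclei 1 or total 2 (0.0952 and 0.0821). MIR162a (AT5G08185, chromosome 5, 2634101 to 2635438), whose microRNA targets DCL1, stood at 13.8 and 19.3 CPM in nuclei, against 6.30 and 4.65 CPM in total RNA (ratio 1.59, SE 0.44, adjusted p = 0.0212). It was lost without nuclei 2, total 1 or total 2 (0.0781, 0.0754 and 0.155). In these loci too, the lower nuclear value lay above the higher value of total RNA, as it did at 33.1% of all loci tested.

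MIR408 (AT2G47015, chromosome 2, 19319780 to 19321026), whose microRNA targets laccase and other copper protein genes, stood at 37.1 and 25.2 CPM in nuclei, against 10.8 and 12.8 CPM in total RNA (ratio 1.41, SE 0.41, adjusted p = 0.0259). Its call was lost without nuclei 1, total 1 or total 2 (0.128, 0.146 and 0.0879). MIR156c (AT4G31877, chromosome 4, 15413319 to 15415873), of the family that holds back SPL transcription factors in young plants, stood at 6.19 and 9.86 CPM in nuclei, against 1.97 and 1.75 CPM in total RNA (ratio 2.1, SE 0.63, adjusted p = 0.0298). Its call was lost without nuclei 2, total 1 or total 2 (0.101, 0.138 and 0.162). Among the loci that did not pass, MIR414 had 4.35 and 5.89 CPM in nuclei, against 12.8 and 12.5 CPM in total RNA, a ratio of -1.31 (SE 0.64, adjusted p = 0.152).

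**Figure D2:**
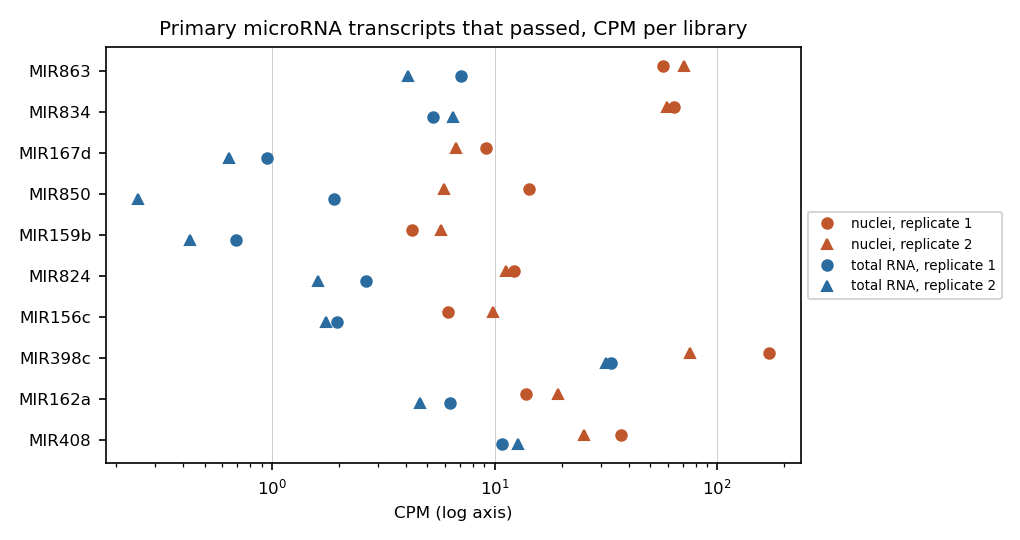
CPM (horizontal log axis) of the 10 primary microRNA transcripts that passed, 1 point per library, with circles for replicate 1 and triangles for replicate 2. Both nuclear points of each transcript lie to the right of both total RNA points, with the largest ratios for MIR863 (3.51) and MIR834 (3.38).

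Most RNAs of the spliceosome and the nucleolus were measured at low levels, with 3 of 9 and 5 of 28 tested at an average log2 CPM of 2 or more. U1.5 (AT1G08115, chromosome 1, 2538076 to 2538237), a U1 small nuclear RNA that pairs with 5′ splice sites, stood at 50.6 and 36.7 CPM in nuclei, against 0.656 and 0.929 CPM in total RNA. Its ratio of 5.78 (SE 0.95, adjusted p = 0.00181) passed whichever library was left out. U2.4 (AT3G56825), a U2 RNA that pairs with the branch point, stood at 10.7 and 15.4 CPM in nuclei, against 2.59 and 2.97 CPM in total RNA (ratio 2.23, SE 0.41, adjusted p = 0.00315), but its locus overlaps AT3G56820 and AT3G56830. U4.2 (AT3G06900) stood at 2.51 and 12.7 CPM in nuclei, against 0.361 and 0.0357 CPM in total RNA. Its call (adjusted p = 0.0122) was lost without nuclei 2 or total 2 (0.0687 and 0.0720), and left-out counts for the class were 4, 4, 3 and 2 of 9. These RNAs are not polyadenylated in their mature form, so a library of selected polyadenylated RNA does not measure their full pool.

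Among small nucleolar RNAs, 3 neighbours on chromosome 4 had the smallest adjusted p. AT4G39363 (18305256 to 18305375) stood at 25.3 and 31.7 CPM in nuclei, against 1.38 and 1.79 CPM in total RNA, a ratio of 4.17 (SE 0.36, adjusted p = 0.000351). AT4G39364 and AT4G39366 beside it had ratios of 4.01 (SE 0.38) and 3.90 (SE 0.45). U3B (AT5G53902) and U3D (AT5G54075), copies of the U3 RNA that acts in cutting the ribosomal precursor, had 32.5 and 92.3 CPM and 35.3 and 93.7 CPM in nuclei, against 6.89 and 9.08 CPM and 7.45 and 9.62 CPM in total RNA. Their ratios were 2.96 (SE 0.46) and 2.92 (SE 0.44), and nuclei 2 was the higher library, as it was for 18S rRNA. Both loci had nearly the same level in every library, and whether they share reads was not tested. Left-out counts for the class were 12, 13, 8 and 5.

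Long non-coding RNAs included some of the sharpest differences. AT3G13277 (chromosome 3, 4290082 to 4291595) stood at 79.0 and 111 CPM in nuclei, against 4.50 and 3.11 CPM in total RNA, a ratio of 4.64 (SE 0.41, adjusted p = 0.000351). AT3G05932 and AT1G03545 had ratios of 3.42 (SE 0.32) and 3.22 (SE 0.29), and AT4G36648, with 569 and 771 CPM in nuclei, against 40.6 and 54.1 CPM in total RNA, had 3.82 (SE 0.38). All 4 passed whichever library was left out. Of the 8 named long non-coding RNAs looked up, 7 were tested, 4 were higher and 1 was lower, with a median of 1.37 that turned sign without nuclei 2 (-0.19). The 4 were precursors of trans-acting small interfering RNAs: TAS2 (ratio 1.75, SE 0.33, adjusted p = 0.00338), TAS1C (1.53), TAS1A (1.42) and TAS1B (1.37). TAS2 passed whichever library was left out, and left-out counts of higher members were 4, 3, 2 and 1. The lower one was AT5G03545 (ratio -2.14), a transcript known from phosphate starvation.

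The largest rises and falls among well measured genes were taken from loci with at least 10 counts in each of the 4 libraries and an average log2 CPM of 5 or more. By this rule 3233 loci that passed without overlap were eligible, 1391 higher and 1842 lower, and the 12 largest each way are described. Each of these 24 passed whichever library was left out.

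Little-studied and non-coding loci made up most of the rises described. AT2G01008 (chromosome 2, 1025 to 2810), near the end of the chromosome arm beside the ribosomal RNA, stood at 117 and 217 CPM in nuclei, against 2.99 and 2.68 CPM in total RNA. Its ratio was 5.88 (SE 0.46, adjusted p = 0.000351), but 50.6% of the locus has a near-identical copy, AT3G41762. AT2G16586 stood at 165 and 267 CPM in nuclei, against 4.96 and 6.51 CPM in total RNA (ratio 5.24, SE 0.52). AT1G68945 (chromosome 1, 25926963 to 25927331), annotated as an uncharacterized protein of 369 exonic bp, stood at 603 and 746 CPM in nuclei, against 18.9 and 20.3 CPM in total RNA, a ratio of 5.11 (SE 0.43, adjusted p = 0.000351). In each of these the nuclear libraries stood more than 10-fold above total RNA, with no overlap.

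Others of the 12 had a named family. AT1G79245, a transcribed pseudogene of 4780 exonic bp, stood at 2186 and 3858 CPM in nuclei, against 162 and 177 CPM in total RNA (ratio 4.16, SE 0.52). The pseudogene AT1G20390 (6068 bp) stood at 242 and 340 CPM in nuclei, against 21.5 and 21.4 CPM in total RNA (ratio 3.76, SE 0.36). RLP19 (AT2G15080), a receptor-like protein of the leucine-rich repeat family that has members in pathogen recognition, stood at 191 and 291 CPM in nuclei, against 16.8 and 17.7 CPM in total RNA (ratio 3.80, SE 0.30). AT2G15042, another leucine-rich repeat gene, had a ratio of 4.18 (SE 0.34). AT4G00040, a chalcone synthase family gene, stood at 611 and 448 CPM in nuclei, against 31.2 and 51.6 CPM in total RNA (ratio 3.68, SE 0.40).

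The largest falls included messengers of defence and chloroplast proteins. AT3G05730 (chromosome 3, 1695976 to 1696708), a defensin-like protein, stood at 4.35 and 1.72 CPM in nuclei, against 95.5 and 116 CPM in total RNA. Its ratio was -5.09 (SE 0.73, adjusted p = 0.00097), and nuclei and total RNA were far from overlapping. AT4G22485 and AT4G22505, neighbouring genes of the lipid-transfer and seed storage inhibitor family, had ratios of -4.48 (SE 0.50) and -3.84 (SE 0.77). TGG2 (AT5G25980, chromosome 5, 9072727 to 9075690), a myrosinase that splits glucosinolates and is made in guard cells and myrosin cells, stood at 59.1 and 94.4 CPM in nuclei, against 907 and 1062 CPM in total RNA (ratio -3.68, SE 0.32, adjusted p = 0.000351).

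Chloroplast proteins encoded in the nucleus made up several of the others. NPQ4 (AT1G44575), the PsbS protein that lets leaves shed excess light, stood at 131 and 95.2 CPM in nuclei, against 1117 and 1035 CPM in total RNA (ratio -3.25, SE 0.33). SCO1 (AT1G62750), the elongation factor G of chloroplast translation, stood at 55.5 and 66.4 CPM in nuclei, against 523 and 546 CPM in total RNA (ratio -3.13, SE 0.37). ATPD (AT4G09650), the delta subunit of the chloroplast ATP synthase, had a ratio of -3.08 (SE 0.34) and AT2G27290 one of -3.05 (SE 0.36). MT3 (AT3G15353), a metallothionein that binds copper and zinc, stood at 99.7 and 91.3 CPM in nuclei, against 634 and 1126 CPM in total RNA (ratio -3.20, SE 0.40). The remaining 3 were AT1G04800, a glycine-rich protein (-3.89), AT1G23130 (-3.45) and AT1G52870 (-3.21).

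Low ratios were not confined to short messengers. Among genes with 3 kb or more of exon, the largest falls were GUN5 (AT5G13630), the H subunit of magnesium chelatase in chlorophyll synthesis, with 150 and 67.8 CPM in nuclei, against 837 and 663 CPM in total RNA (ratio -2.78, SE 0.49, adjusted p = 0.00254). CLPC1 (AT5G50920), a chaperone of chloroplast protein import and turnover, had a ratio of -2.46 (SE 0.30), and PREP1 (AT3G19170), a protease of cleaved targeting peptides, -2.37 (SE 0.37). These 3 were lower in nuclei whichever library was left out.

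**Figure D3:**
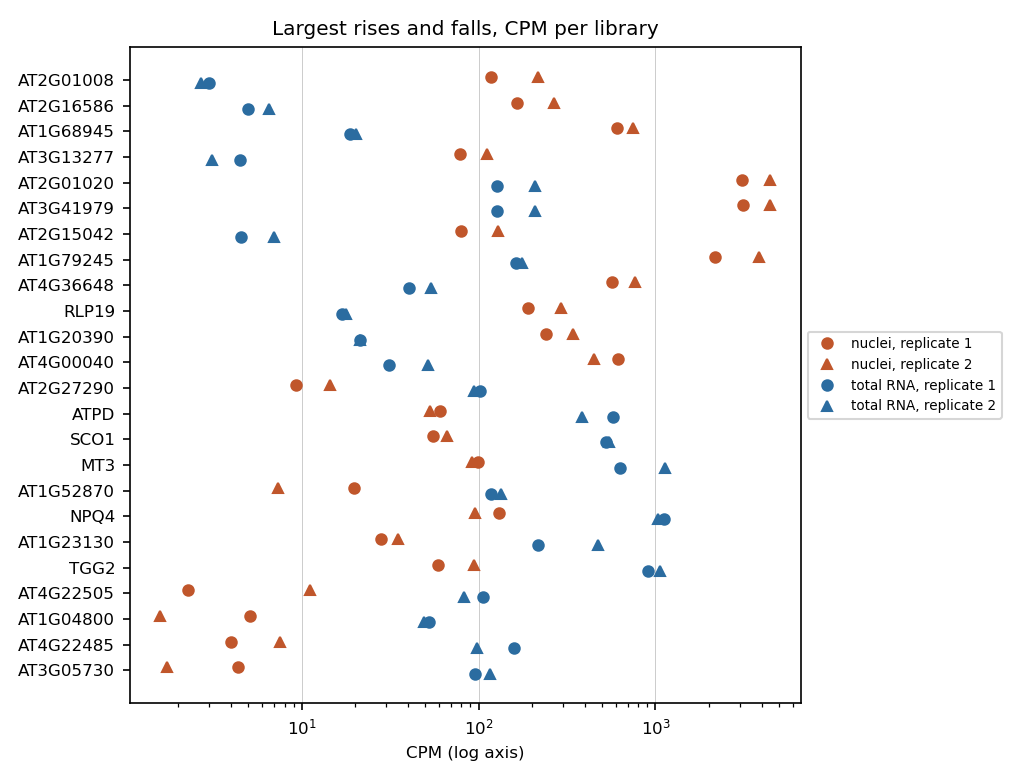
CPM (log axis) in each of the 4 libraries for the 12 largest rises and the 12 largest falls in nuclei against total RNA among genes with at least 10 counts in every library and an average log2 CPM of 5 or more. The 2 nuclear points of each rise lie to the right of both total RNA points, those of each fall to the left; AT2G01008 has the largest rise (5.88) and AT3G05730 the largest fall (-5.09).

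The libraries also differed in what they held most of. By mean CPM, the 5 highest loci of nuclei were the 18S rRNA pair, ATCG00950, ATCG01180 and GRP7. GRP7 (AT2G21660), an RNA-binding protein of the circadian clock that regulates its own splicing, stood at 10262 and 6049 CPM in nuclei, against 4075 and 4758 CPM in total RNA, with a ratio of 0.88 (SE 0.36, adjusted p = 0.0912) that did not pass. The 5 highest of total RNA were photosynthesis genes: CAB1, RBCS1A, LHB1B2, RBCS3B and RBCS2B. CAB1 (AT1G29930), a light-harvesting chlorophyll protein, stood at 7237 and 4906 CPM in nuclei, against 30295 and 32809 CPM in total RNA (ratio -2.38, SE 0.38, adjusted p = 0.00165). RBCS1A (AT1G67090), the small subunit of Rubisco, stood at 3645 and 2889 CPM in nuclei, against 17802 and 23943 CPM in total RNA (ratio -2.68, SE 0.39, adjusted p = 0.00102).

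Lists of genes were next compared by role, first those of the RNA life cycle. This and every later list stands beside 15.1% higher, 15.6% lower and a median near 0 over all genes tested. For making the 3′ end of messengers, 7 of 17 polyadenylation factors were higher in nuclei and 1 lower, with a median ratio of 0.62. FCA (AT4G16280), an RNA-binding protein that promotes early polyadenylation of the antisense RNA at FLC and regulates its own transcript the same way, stood at 161 and 146 CPM in nuclei, against 27.1 and 28.7 CPM in total RNA (ratio 2.47, SE 0.26, adjusted p = 0.000356). The poly(A) polymerases PAPS2 (83.0 and 86.2 CPM in nuclei, against 27.6 and 18.7 CPM in total RNA, ratio 1.87, SE 0.27) and nPAP (1.79, SE 0.29) were also higher, as was FY (1.42), the partner of FCA. The lower one was the cleaving subunit CPSF73-I (-1.15). Left-out counts were 7, 6, 5 and 5 higher.

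Of 23 genes of transcription and elongation, 2 were higher and 10 lower, with a median of -0.68 (-0.43 without nuclei 1). NRPB5 (AT3G22320), a subunit of RNA polymerase II, stood at 14.4 and 16.4 CPM in nuclei, against 57.2 and 55.8 CPM in total RNA (ratio -1.88, SE 0.33, adjusted p = 0.00258). NRPB7 (-2.35), NRPB11 (-1.37) and NRPB2 (-1.15) were also lower. ELF7 (AT1G79730) and ELF8, of the Paf1 complex that travels with the polymerase, were higher, at 1.37 (SE 0.23, adjusted p = 0.00183) and 0.86. Left-out counts of lower members were 3, 6, 3 and 5.

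Of 13 core spliceosome genes, 2 were higher and 5 lower, with a median of -0.62. PRP40B (AT3G19670), a U1-associated protein that bridges the ends of an intron, stood at 218 and 158 CPM in nuclei, against 35.5 and 37.0 CPM in total RNA (ratio 2.38, SE 0.25, adjusted p = 0.000356), and PRP40A had 1.00. CDC5 (AT1G09770), of the complex that activates the spliceosome, stood at 71.7 and 58.1 CPM in nuclei, against 202 and 230 CPM in total RNA (ratio -1.73, SE 0.24, adjusted p = 0.000875). The Prp19-type ligase MAC3B (-1.40) and the U5 GTPase gene MEE5 (-1.62, SE 0.25) were also lower, and left-out counts of lower members were 3, 5, 3 and 4.

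RNA-binding proteins of the glycine-rich and polypyrimidine-tract families, several of which control splicing of their own transcripts, had 6 of 16 higher and 3 lower and a median of 0.73. CCR1 (AT4G39260), also known as GRP8, stood at 1243 and 757 CPM in nuclei, against 269 and 236 CPM in total RNA (ratio 1.99, SE 0.32, adjusted p = 0.00175). AtRZ-1c (AT5G04280) stood at 83.8 and 82.8 CPM in nuclei, against 30.1 and 26.2 CPM in total RNA (ratio 1.57, SE 0.26). PTB1, PTB2 and PTB3 had 0.98, 0.93 and 0.81, while RBP47A was lower (-1.19, SE 0.25). Left-out counts of higher members were 6, 5, 2 and 2.

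Of 17 genes of small RNA pathways, 4 were higher and 1 lower, with a median of -0.24 that turned sign without nuclei 2 (0.0069). DCL1 (AT1G01040, chromosome 1, 23146 to 31227), which cuts microRNA precursors, stood at 195 and 183 CPM in nuclei, against 38.4 and 40.9 CPM in total RNA. Its ratio was 2.25 (SE 0.24, adjusted p = 0.000356), with no overlap. MIR838, whose locus lies inside that of DCL1, had 0.532 and 0.463 CPM in nuclei, against 0.656 and 0.393 CPM in total RNA, a ratio of -0.08 (SE 1.14). DCL2 (AT3G03300), which makes small RNAs from viruses and repeats, had 1.5 (SE 0.30, adjusted p = 0.00459), though its locus overlaps AT3G03305. RDR6 (0.77) and SE (0.75), a partner of DCL1, were higher and AGO1 (-0.79), the slicer that carries microRNAs, was lower. Left-out counts of higher members were 2, 3, 2 and 2, with DCL1 and DCL2 the pair that passed in each.

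Messenger decay was mixed, with 2 of 22 higher and 4 lower and a median of -0.10 (-0.0078 without nuclei 1). LSM1B (AT3G14080), of the ring that binds shortened tails, stood at 28.5 and 30.7 CPM in nuclei, against 11.3 and 9.87 CPM in total RNA (ratio 1.48, SE 0.25, adjusted p = 0.00221). Against the profiling seedlings in place of total RNA, the LSM1B ratio had the opposite sign (-0.79). The poly(A)-binding proteins PAB2 (AT4G34110, 170 and 135 CPM in nuclei, against 477 and 512 CPM in total RNA, ratio -1.69, SE 0.25), PAB4 (-1.42) and PAB8 (-1.05) were lower. Left-out counts of lower members were 2, 6, 2 and 2. Of 6 genes of nonsense-mediated decay and the exon junction, MAGO (AT1G02140) was lower, at 17.1 and 18.1 CPM in nuclei, against 68.0 and 56.2 CPM in total RNA (ratio -1.82, SE 0.26, adjusted p = 0.00101), and the median was -0.50 (-0.32 without total 1).

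Of 20 translation factors 11 were lower and 0 higher, with a median of -0.95. TCTP (AT3G16640), a growth-related protein of the translation machinery, stood at 511 and 564 CPM in nuclei, against 2243 and 2837 CPM in total RNA (ratio -2.24, SE 0.32, adjusted p = 0.00097). LOS1 (AT1G56070), the elongation factor eEF2, stood at 203 and 216 CPM in nuclei, against 898 and 859 CPM in total RNA (ratio -2.07, SE 0.27, adjusted p = 0.000713). ATARCA (AT1G18080), the ribosomal scaffold RACK1A, stood at 118 and 122 CPM in nuclei, against 349 and 366 CPM in total RNA (ratio -1.57, SE 0.24). Left-out counts of lower members were 7, 10, 7 and 8. Among 16 aminoacyl-tRNA synthetases 2 were higher and 4 lower, with a median of -0.39 (-0.17 without nuclei 2); SYNC1 (AT5G56680), which charges asparagine tRNA, had a ratio of -1.96 (SE 0.30, adjusted p = 0.00127), and left-out counts of lower members were 3, 2, 1 and 3.

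Housekeeping groups of the cytoplasm held falls and no rises, beside 15.1% higher and 15.6% lower over all genes tested. Of 31 proteasome subunits 15 were lower and 0 higher, with a median of -0.76 and a highest ratio of -0.11; PAD1 (AT3G51260), an alpha ring subunit, stood at 21.4 and 23.0 CPM in nuclei, against 68.9 and 71.4 CPM in total RNA (ratio -1.66, SE 0.22, adjusted p = 0.000764). Of 16 nuclear-encoded genes of respiration 13 were lower and 0 higher (median -1.06), with AOX1A (AT3G22370), the alternative oxidase, at 3.96 and 5.10 CPM in nuclei, against 27.7 and 15.6 CPM in total RNA (ratio -2.26, SE 0.42). Of 21 genes of glycolysis and the citrate cycle 10 were lower and 0 higher (median -0.63), led by FBA5 (-2.05) and PKP-ALPHA (-1.71, SE 0.23). Left-out counts of lower members were 8, 11, 8 and 4 for the proteasome, 6, 12, 8 and 4 for respiration, and 6, 3, 2 and 5 for glycolysis and the citrate cycle.

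Genes of the cytoskeleton were read by protein type, beside 15.1% higher and 15.6% lower over all genes tested. Of 21 actins and tubulins tested (of 23), 13 were lower and 0 higher, with a median of -1.22 and left-out counts of 12, 11, 12 and 11. TUA6 (AT4G14960) stood at 132 and 181 CPM in nuclei, against 567 and 566 CPM in total RNA (ratio -1.86, SE 0.29, adjusted p = 0.00144), and ACT8 (AT1G49240) at 106 and 123 CPM in nuclei, against 361 and 467 CPM in total RNA (ratio -1.86, SE 0.30, adjusted p = 0.00166). Of 22 myosins and kinesins tested (of 23), the motors that run on these filaments, 6 were higher and 0 lower, with a median of 0.28 (0.06 without nuclei 1) and left-out counts of higher members of 5, 4, 4 and 4. XIJ (AT3G58160) stood at 58.5 and 43.6 CPM in nuclei, against 10.2 and 9.26 CPM in total RNA (ratio 2.39, SE 0.37, adjusted p = 0.00135), and VIIIB (AT4G27370) at 63.5 and 62.3 CPM in nuclei, against 13.7 and 11.3 CPM in total RNA (ratio 2.33, SE 0.27, adjusted p = 0.000433). The tested motors had a median of 4279 exonic and 3614 intronic bp, against 1700 and 573 bp for the actins and tubulins, and the part of length in the difference was not tested.

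Few membrane proteins passed, and in both lists below the share lower was near the 15.6% over all genes tested. Of 18 aquaporins 3 were lower and 0 higher (median -0.35), the 3 being PIP2;5 (-2.24, SE 0.42), PIP2;8 (-1.49, SE 0.26) and PIP1;5 (-1.35, SE 0.26), and each passed whichever library was left out. Of 22 ABC transporters 4 were lower and 0 higher (median -0.23, or -0.46 without nuclei 2), and left-out counts were 1, 1, 0 and 3.

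Among chromatin genes of the Polycomb, Trithorax and remodelling groups 5 of 23 were higher and 3 lower, with a median of 0.46 (0.22 without nuclei 2). Neither share was far from the 15.1% higher and 15.6% lower over all genes tested. ATX2 (AT1G05830), a histone methyltransferase, stood at 98.1 and 134 CPM in nuclei, against 41.1 and 32.8 CPM in total RNA (ratio 1.65, SE 0.27, adjusted p = 0.00179). INO80 (AT3G57300), a nucleosome remodeller, stood at 198 and 205 CPM in nuclei, against 79.0 and 69.6 CPM in total RNA (ratio 1.44, SE 0.23, adjusted p = 0.00172), and VRN2 (AT4G16845), a Polycomb subunit of vernalization, had 1.25 (SE 0.24). These 3 passed whichever library was left out, and left-out counts of higher members were 4, 4, 3 and 3. Of 23 genes of DNA methylation and silencing 0 were higher and 4 lower (median 0.02, or -0.16 without nuclei 1), led by DRD1 (AT2G16390), a remodeller of RNA-directed DNA methylation, at 1.93 and 5.36 CPM in nuclei, against 18.2 and 19.4 CPM in total RNA (ratio -2.38, SE 0.45, adjusted p = 0.00375). The share of these silencing genes that were lower was near the 15.6% over all genes tested. Their left-out counts were 1, 4, 1 and 2. Of 21 histone genes 7 were lower and 0 higher (median -0.21, or -0.33 without nuclei 2), such as HTA9 (AT1G52740), an H2A.Z histone (-1.54, SE 0.28, adjusted p = 0.00294), with left-out counts of 5, 6, 3 and 3. Histone messengers of plants are polyadenylated, so the selection step keeps them.

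Immune receptors of the NLR type had 7 of 22 tested members higher (of 23) and 1 lower, beside 15.1% and 15.6% over all genes tested. Their median was 0.35 (0.13 without nuclei 1). RLM3 (AT4G16990), of the TIR class, stood at 510 and 480 CPM in nuclei, against 113 and 134 CPM in total RNA (ratio 2.00, SE 0.24, adjusted p = 0.000501). TAO1 (AT5G44510) stood at 50.2 and 63.5 CPM in nuclei, against 19.7 and 15.9 CPM in total RNA (ratio 1.67, SE 0.33, adjusted p = 0.0048). RLM3 and TAO1 passed whichever library was left out, and left-out counts of higher members were 3, 6, 3 and 2. The lower one, RPP8 (AT5G43470, ratio -1.93, SE 0.44, adjusted p = 0.00921), overlaps AT5G43480 and was lost without nuclei 2 (0.068). Genes induced within minutes by touch or cell damage, a sign of handling, had a median of 0.55 that turned sign without nuclei 1 (-0.32). HSFA2, YLS9 and ERF1 of this list were at 0 in nuclei. Of 34 members tested (of 37), 0 were lower and 2 were higher, a share below the 15.1% higher over all genes tested. The 2 higher ones were WRKY40 (AT1G80840), at 159 and 129 CPM in nuclei, against 44.8 and 25 CPM in total RNA (ratio 2.04, SE 0.69, adjusted p = 0.0476), and DREB2A (AT5G05410), at 17.9 and 8.47 CPM in nuclei, against 4.46 and 4.15 CPM in total RNA (ratio 1.62, SE 0.50, adjusted p = 0.0354). WRKY40 was lost whichever library was left out, and DREB2A without nuclei 1, total 1 or total 2, with adjusted p up to 0.215.

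**Figure D4:**
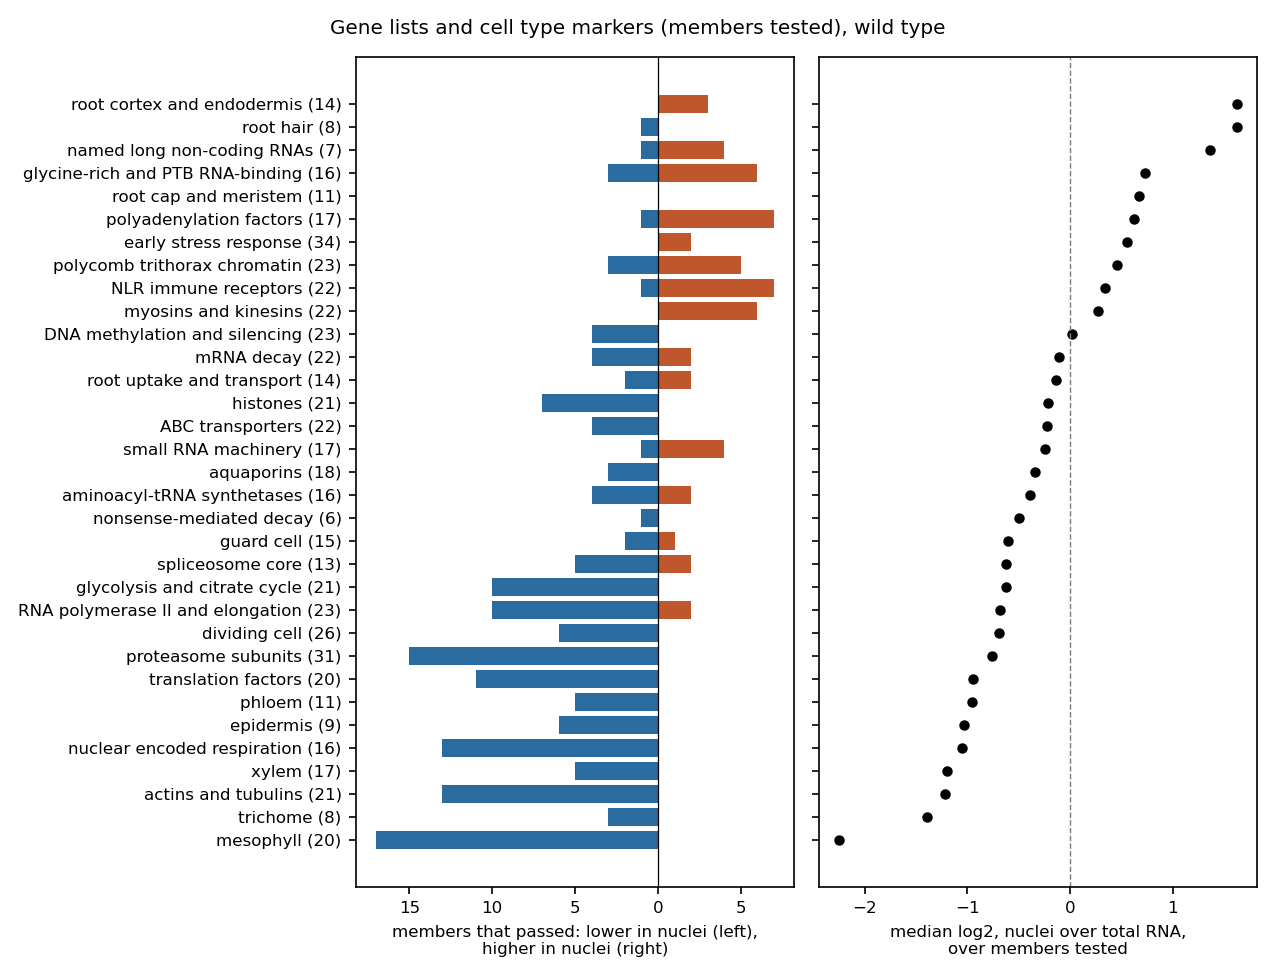
Gene lists and cell type marker lists, with the number of members tested in brackets. Bars count the members that passed, higher in nuclei to the right and lower to the left, and points give the median log2 ratio of nuclei over total RNA over the members tested, from 1.63 for the root cortex and endodermis to -2.25 for the mesophyll.

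Markers of the cell types in a seedling were read in both kinds of RNA, because a change in the mix of cells would also move ratios. Of 20 mesophyll markers, all photosynthesis genes, 17 were lower in nuclei and 0 higher, with a median of -2.25 and left-out counts of 18, 14, 15 and 14. Their summed level was 33062 and 20524 CPM in nuclei, against 119080 and 132790 CPM in total RNA. DRT112 (AT1G20340), a plastocyanin, stood at 389 and 342 CPM in nuclei, against 2883 and 3184 CPM in total RNA (ratio -3.05, SE 0.30, adjusted p = 0.000351), and GAPA (AT3G26650), of the Calvin cycle, at 395 and 386 CPM in nuclei, against 2809 and 3223 CPM in total RNA (ratio -2.95, SE 0.37). No mesophyll marker was at 0 in either kind of RNA.

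Of 14 markers of the root cortex and endodermis tested (of 16), 3 were higher and 0 lower, beside 15.1% higher over all genes, and the other 11 did not pass. Their median was 1.63 (0.66 without nuclei 2), with a summed level of 159 and 188 CPM in nuclei, against 92.0 and 92.8 CPM in total RNA. CASP2 (AT3G11550), which helps to build the Casparian strip, stood at 15.2 and 23.9 CPM in nuclei, against 1.48 and 2.25 CPM in total RNA (ratio 3.39, SE 0.58, adjusted p = 0.00229), CASP1 had 2.75 (SE 0.61) and ESB1 1.60 (SE 0.35). CASP2 passed whichever library was left out, CASP1 was lost without total 1 (0.0595) and ESB1 without total 1 or total 2 (0.0544 and 0.0503), which left 3, 3, 1 and 2 higher as left-out counts. Of 14 genes of root uptake and transport tested (of 21) 2 were higher and 2 lower, both shares near those over all genes tested. SULTR1;2 (AT1G78000), a root sulfate importer, stood at 51.1 and 112 CPM in nuclei, against 9.26 and 20.7 CPM in total RNA (ratio 2.44, SE 0.51, adjusted p = 0.0058), while FRO2, SULTR1;1 and HKT1 were at 0 in nuclei and NRT2:1, NRT2.2, AMT1;5, SULTR1;1 and IRT1 at 0 in total RNA. Of 8 root hair markers tested (of 13) 0 were higher and 1 lower, with a median of 1.63 (0.09 without nuclei 2) over those tested. RSL4, RHD6 and G3Pp2 of this list were at 0 in nuclei, and no member was at 0 in total RNA. Summed root hair levels overlapped (17.9 and 17.0 CPM in nuclei, against 15.0 and 17.6 CPM in total RNA). Of 11 markers of root cap and meristem tested (of 12) 0 passed, with a median of 0.67.

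In the lists of other tissues more members were lower than higher, beside 15.1% higher and 15.6% lower over all genes tested. Outside the epidermis most members did not pass. The counts were 6 of 9 lower and 0 higher for the epidermis (median -1.03), 3 of 8 and 0 for trichomes (-1.40), 5 of 11 tested (of 12) and 0 for the phloem (-0.96), 5 of 17 and 0 for the xylem (-1.20, or -2.23 without nuclei 2), 6 of 26 and 0 for dividing cells (-0.70, or -0.41 without total 1), and 2 of 15 lower with 1 higher for guard cells (-0.61). The guard cell share lower was below the 15.6% over all genes. Summed levels did not overlap for the epidermis (441 and 380 CPM in nuclei, against 1039 and 1044 CPM in total RNA), the phloem (184 and 179 CPM, against 406 and 439 CPM) or the xylem (80.4 and 77.9 CPM, against 162 and 143 CPM). Those of guard cells overlapped (136 and 134 CPM in nuclei, against 154 and 130 CPM in total RNA). Left-out counts of lower members were 4, 2, 1 and 3 for the epidermis, 1, 2, 0 and 0 for trichomes, 5, 4, 4 and 3 for the phloem, 4, 7, 4 and 4 for the xylem and 5, 8, 1 and 3 for dividing cells.

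Single xylem genes differed widely. TED6 (AT1G43790), which acts in wall thickening of vessel cells, had 0 counts in both nuclear libraries, against 97 and 168 counts in total RNA, so that it was at least 54.1-fold lower against a floor of 3 counts over the 2 nuclear libraries. XCP2 (AT1G20850), a protease of dying vessel cells, stood at 1.02 and 4.37 CPM in nuclei, against 32.1 and 30.3 CPM in total RNA (ratio -3.57, SE 0.56, adjusted p = 0.00146). IRX12 (AT2G38080), a laccase of lignin formation, stood at 1.69 and 2.05 CPM in nuclei, against 14.2 and 14.2 CPM in total RNA (ratio -2.92, SE 0.42, adjusted p = 0.000959). Among phloem genes the proton pump HA3 (-1.76, SE 0.23) and the sulfate carrier SULTR2;1 (-1.80, SE 0.30) were lower. The part of cell mix in the ratios of genes outside the marker lists was not tested.

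Gene structure was read from the deposited locus length and exonic length, their difference being intronic length. The exonic length never exceeded the locus length, and of 9926 loci with a single exon in the reference annotation 9868 had both equal. Among protein-coding genes of the wild type, the median ratio was lowest without introns, which was not so in eds4 (values further below). The 3334 genes with no intron had a median of -0.42, with 5.49% higher and 18.0% lower, while the 1416 genes with 2 to 4 kb of intron had 0.33, with 26.4% higher and 8.69% lower. The classes between had -0.03 (under 0.5 kb), -0.09 (0.5 to 1 kb) and 0.13 (1 to 2 kb), and the 213 genes with 4 kb or more had 0.22. With each nuclear library set over the mean of total RNA, genes without introns had -0.43 and -0.42 and genes with 2 to 4 kb of intron 0.29 and 0.23. Both nuclear libraries thus showed the order, but these values share their total RNA and do not show its variation.

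The number of exons in the reference annotation gave a steadier series. Medians were -0.45 for 1 exon (2890 genes), -0.30 for 2, -0.16 for 3 to 4, 0.02 for 5 to 7, 0.20 for 8 to 11, 0.33 for 12 to 19 and 0.31 for 20 or more (607 genes). The share higher in nuclei was 4.74% with 1 exon and 26.8% with 12 to 19 exons. Spearman's rho with the ratio across 20319 protein-coding genes was 0.20 for the number of exons, 0.14 for locus length, 0.13 for intronic length and 0.11 for exonic length. These are weak relations across genes of the same 4 libraries, and genes are not independent replicates.

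Exonic length by itself ended its trend early. The median was -0.37 under 1 kb (4582 genes), 0.01 at 1 to 2 kb, 0.11 at 2 to 3 kb, 0.04 at 3 to 5 kb and 0.02 at 5 to 9 kb, and the 18 genes of 9 kb or more had -0.10. Within a class of exonic length, introns still ordered the genes in part. Among genes with 1 to 2 kb of exon the median was -0.45 with no intron (1435 genes) and 0.46 with 2 to 4 kb of intron (341 genes), and among those with 2 to 3 kb of exon it was -0.52 and 0.34. Among genes with less than 1 kb of exon it was -0.37 with no intron, -0.20, -0.59 and -0.37 in the next classes, and 1.64 in the 24 genes with 2 to 4 kb of intron, of which 10 were higher and 0 lower. With 3 kb or more of exon it ran between -0.22 and 0.16 over the classes, so the spread there was small.

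The order by introns was seen in each tier of level, with a different size. In protein-coding genes with an average log2 CPM of 5 or more, genes without introns had a median of -0.76 and those with 2 to 4 kb of intron 0.35. At log2 CPM 2 to 5 these were -0.45 and 0.27, and under 2 they were -0.16 and 0.60. For exonic length under 1 kb the medians were -0.95, -0.35 and 0.19 in the same 3 tiers. Over all loci tested, pseudogenes and RNAs included, the median of loci with 2 kb or more of intron exceeded that of loci with none by 0.54 in log2, with an SD of 0.0496 between the nuclear libraries, and loci with 3 kb or more of exon exceeded those under 1 kb by 0.48 (SD 0.067). The first difference was 0.22 without total 2 and 0.37 without it on the loci tested with all libraries.

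**Figure D5:**
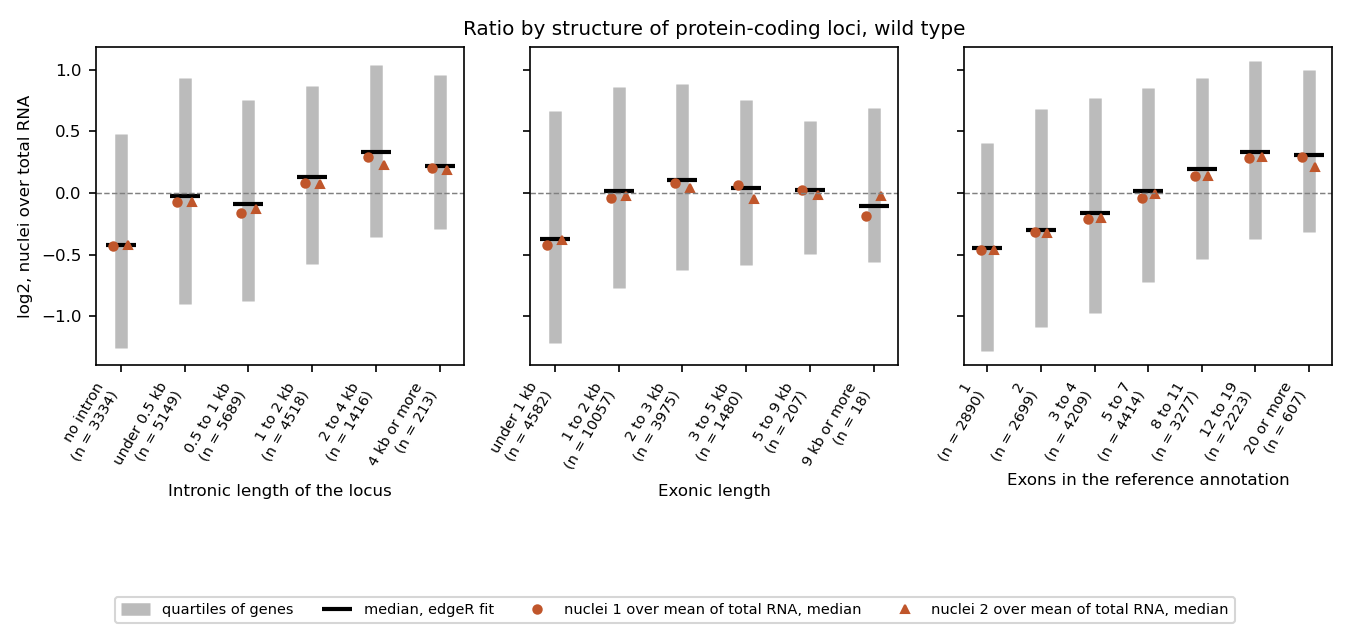
Log2 ratio of nuclei over total RNA in protein-coding genes, by class of intronic length, exonic length and number of exons; grey bars span the quartiles, black lines are medians and points are the medians of each nuclear library over the mean of total RNA. Medians climb from -0.45 with 1 exon to 0.33 with 12 to 19 exons and from -0.42 without introns to 0.33 with 2 to 4 kb of intron, while by exonic length they stay between -0.10 and 0.11 above 1 kb.

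The median ratio fell as the level of a gene in whole seedlings rose. Total RNA of whole seedlings is also the denominator of the ratio, so part of such a fall is built in. The relation was not compared with that of structure by a like measure. So that the ratio and the level would share no library, genes were sorted by RPKM (CPM per kilobase of exon) in the 4 wild type profiling seedlings, which were extracted with a column kit. The 1828 protein-coding genes under 1 RPKM had a median ratio of 0.87, the 8459 at 1 to 10 RPKM 0.22, the 9019 at 10 to 100 RPKM -0.23, the 957 at 100 to 1000 RPKM -1.18, and the 56 at 1000 RPKM or more -2.12. Of the 957, 2.30% were higher in nuclei and 67.3% lower, and of the 56, 49 were lower and 3 higher. Genes under 1 RPKM entered the test partly through counts in nuclei, so their median is that of the genes that passed the filter.

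Single genes went against this order. CCR1, with a mean of 1114 RPKM in nuclei against 281 RPKM in total RNA, was higher in nuclei, and it was picked as an example after its values were seen.

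The same comparison in eds4, a mutant of a nuclear pore protein, used 4 other libraries (2 of nuclei, 2 of total RNA) that share none with the wild type, though all 8 were fitted together. There 6357 loci passed (29.6%). Of the 6582 wild type calls, 6427 (97.6%) had the same sign in eds4 and 4666 (70.9%) also passed there, which is 73.4% of the eds4 calls, and 2 passed with the opposite sign. Across 21484 loci the ratios of wild type and eds4 had a Pearson correlation of 0.63 and a Spearman correlation of 0.73, a description over genes without a test. The class medians in eds4 were 1.88 for primary microRNA and 3.58 for small nucleolar RNA, but 0.45 for small nuclear RNA and 1.29 for nuclear rRNA, and these class medians were not tested between genotypes. By structure, eds4 medians of protein-coding genes were -0.02 without introns, -0.12 with 0.5 to 1 kb of intron and 0.48 with 2 to 4 kb. They were -0.05 with 1 exon, -0.15 with 2, -0.16 with 3 to 4 and 0.41 with 12 to 19. Genes without introns or with 1 exon thus did not have the lowest median in eds4, and this difference was not tested. The test of the difference of ratios between genotypes called 0 loci in edgeR, with 1252 at an unadjusted p under 0.05, and 40 in DESeq2.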

How the data were processed

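Polyadenylated RNA of wild type sorted nuclei and whole seedlings was sequenced in pairs on an Illumina HiSeq instrument after TruSeq preparation with random hexamers and 12 cycles of PCR, per the labels' protocols. The authors deposited raw read counts per locus, unnormalised, with locus and exonic lengths. TopHat2 2.1.1, SAMtools 1.3 and the TAIR10 build are named in the submitters' processing notes. Not given in the sources used here are the counting program, how it handled strand and multiply matching reads, and the release of the annotation; 489 loci listed an overlapping locus. Columns were placed by name, and 0 belonged to other samples. Totals were 15291096 to 31745372 counts in the 4 libraries, which sets the precision of low loci.

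The 8 libraries of nuclei and total RNA of both genotypes were fitted together in edgeR 4.0.16 (R 4.3.3, filterByExpr, TMM scaling, quasi-likelihood F test, Benjamini-Hochberg adjustment, threshold 0.05), so that the spread is pooled. SE is the log2 ratio divided by the root of F. DESeq2 1.42.0 was an alternative, and others were another scaling, no filter, leaving out each library, leaving out rRNA and organelle loci, the 4 wild type libraries alone, and profiling seedlings in place of total RNA. On simulated counts the procedure recovered 10 of 96 known changes of 1 in log2 and 69 of 99 changes of 2. It also called 2 loci that had no change. Only 200 of the 21484 simulated loci were changed, while 30.6% passed in the data, so these rates need not hold here. A gene that did not pass may still differ. RNA classes, exons and symbols came from RefSeq (32835 of 33602 loci matched). Transposon genes are not marked there and were not described as a class. Genes were named by rule: the 12 largest rises and falls, the 3 largest each way by intron and exon class, the 5 highest loci of each kind of RNA, and up to 3 members per list or class with the smallest adjusted p. Not all genes so chosen are described. Other members given with a ratio alone were added to describe their list after their values were seen. The comparison and the gene lists were chosen with earlier results of these data known, so they are no independent support.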

Additional observations from a re-analysis of the deposited data

Results flagged for a closer look

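At 3 named loci the nuclei-to-total ratio had opposite directions in wild type and eds4 with no overlap between nuclei and total RNA in either genotype, while the test of the difference itself did not pass. ATCG00950, on the chloroplast genome, stood at 5268 and 16673 CPM in wild type nuclei, against 1982 and 2263 CPM in wild type total RNA, and at 1873 and 889 CPM in eds4 nuclei, against 1934 and 5717 CPM in eds4 total RNA, a difference of log2 ratios (eds4 minus wild type) of -3.84 (unadjusted p = 0.00187, adjusted p = 0.750 by the edgeR interaction contrast). Its identical copy ATCG01180 had the same difference, -3.84, and is not a second observation. ERF1 (AT3G23240), an ethylene response factor, had 0 counts in wild type nuclei, against 0.131 and 0.357 CPM in wild type total RNA (at least 2.86-fold lower), and 1.86 and 4.01 CPM in eds4 nuclei, against 1.06 and 0.272 CPM in eds4 total RNA, a fitted difference of 7.63 that is no bound (unadjusted p = 0.0119, adjusted p = 0.788). Over 21484 loci, 572 had libraries without overlap in opposite directions in the 2 genotypes.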

How the results depend on the processing

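With profiling seedlings in place of total RNA, 12546 loci passed in place of 6582, and this alternative also changes the extraction and the number of libraries. Under it 4 named genes changed sign: PYM (0.015), EXPA18 (-1.01), LSM1B (-0.79) and PRP3 (-0.11). With each library left out in turn, calls ran between 3418 and 5605, and the fits then have fewer samples. The other alternatives stayed within 1.5 times: 6552 with RLE scaling, 7606 in DESeq2, 7651 with no filter, 6560 without rRNA and organelle loci and 6816 with the 4 wild type libraries alone. The difference between genotypes had 0 calls, but 40 in DESeq2 and 226 with no filter; the cause was not tested. The median of loci with 2 kb or more of intron minus loci with none, 0.54, was 0.95 at log2 CPM of at least 5 and 0.74 in protein-coding loci, and 0.22 to 0.61 with a library left out, or 0.37 to 0.68 (0.67 without total 1) on the loci tested with all libraries, which was added after seeing the data. The median of loci with 3 kb or more of exon minus those under 1 kb, 0.48, was 1.04, 0.40, 0.36 to 0.70 and 0.31 to 0.68 (0.62 without nuclei 2) in the same settings. The cause was not tested. Samples with the same replicate number did not deviate together (correlation 0.13 in the wild type, -0.03 in eds4), so the numbers are not taken as pairs, and with a replicate block 6588 loci passed. Depth limits what few counts can show: 142 of the 409 pseudogenes tested had at least 10 counts in both total RNA libraries. Among 139 named genes past the threshold, 104 stayed past it in each of the left-out fits.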
